A study of Mus musculus with 8 samples.

Results

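The Rab, Arf and Arl genes of the mouse were compared between oocytes that lack Kiaa1429 and control oocytes. The set was taken by symbol: protein-coding genes of GENCODE M21 named Rab, Arf or Arl with a number. It holds 95 of the 52502 genes of the annotation. Of these, 85 are GTPases, with 59 Rab, 6 Arf and 20 Arl genes. The other 10 are Rab-binding partners whose symbols fit the same pattern: Rab3gap1, Rab3gap2, Rab3ip, Rab3il1, Rab5if and the Rab11 family-interacting proteins Rab11fip1 to Rab11fip5. The rule used no measured value.

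Rab, Arf and Arl proteins are small GTPases that switch between a GTP-bound form on a membrane and a GDP-bound form in the cytosol. Guanine nucleotide exchange factors (GEFs) load them with GTP, GTPase-activating proteins (GAPs) end the active state, and effectors such as tethers, coats and motor proteins bind the GTP form. Most Rabs mark a particular compartment of the secretory or endocytic route. Arfs recruit coat proteins and modify lipids, and Arls act at the Golgi, on lysosomes, in tubulin folding and in cilia. In mouse oocytes, Rab11a-positive vesicles carry actin nucleators and form an actin network that moves the spindle, and Rab3a and Rab27a are known for the release of cortical granules.

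RNA was measured in germinal vesicle (GV) oocytes, which are fully grown and arrested in meiotic prophase. The 4 cKO libraries were from Kiaa1429F/F;Zp3-Cre females and the 4 control libraries from Kiaa1429F/+;Zp3-Cre females, all C57BL/6. Zp3-Cre is a recombinase under an oocyte promoter that is active in growing oocytes, so the controls also carry Cre and 1 floxed allele. Kiaa1429, now called Virma, belongs to the methyltransferase complex that adds N6-methyladenosine (m6A) to RNA. All females were labelled as 20 days of age (another label says 3 weeks), had received 5 IU of PMSG 48 hours earlier, and gave oocytes of 70 µm or more that were collected in medium with milrinone. Each library pooled about 20 oocytes. The design text mentions 4 separate experiments and no animals, so the p-values rest on the spread among these 8 libraries, and that spread may be technical.

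The consensus motif of m6A includes the letters GGACT in DNA letters. Since m6A was not measured in these libraries, the motif is shown only as a description of the stretches that were counted. The motif GGACT was searched on the RNA strand of the exon that held most counts of each tested gene. It was present at least once in 35 of 52 tested members (67.3%) and in 62.3% of all 10673 tested genes. The reverse complement AGTCC, which cannot overlap GGACT, was present in 65.4% of members and in 58.4% of all tested genes. GGACT was present in 12 of 17 members higher in cKO (70.6%), 6 of 10 lower (60%) and 17 of 25 that passed no threshold (68%). Among all tested genes it was present in 67.7% of those higher and 59% of those lower. AGTCC was present in 58.8% of members higher, 50% of members lower and 76% of those that passed no threshold. Per kilobase of exon, GGACT sites were 1.16 in members higher, 1.26 in members lower and 0.973 in the others. The shares by direction are therefore no result about the members. The first site is printed for 8 called members, 5 of the higher and 3 of the lower ones, as examples of what was counted in each direction. Each window has 29 bases, with every GGACT in capitals (2 of them in the Rab30 window), as read from the GENCODE M21 transcripts (mm10).
Rab20 (chr8:11453722-11453750, minus strand): aagacctgccttGGACTggtcttgactct
Rab30 (chr7:92836894-92836922, plus strand): ccaaaatactgtGGACTatGGACTgactg
Rab5a (chr17:53506600-53506628, plus strand): aaaggaaaatgaGGACTgtgtgtacactt
Arf2 (chr11:103983701-103983729, plus strand): ttacgaaggcctGGACTggctctccaacc
Arl4d (chr11:101666923-101666951, plus strand): cgccggacagatGGACTggtgtttgtggt
Arl4a (chr12:40036721-40036749, minus strand): gaaatggggaatGGACTgtcagaccagac
Rab8a (chr8:72180223-72180251, plus strand): acacggctgcccGGACTcgattgagaaat
Rab8b (chr9:66847530-66847558, minus strand): tagcaaaagagcGGACTcctttctttaaa
Rab20, Rab30, Rab5a, Arf2 and Arl4d were higher in cKO, and Arl4a, Rab8a and Rab8b were lower. These windows were chosen to hold GGACT, so its presence in genes of both directions is no result. The letters do not tell whether a site is methylated.

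Counts on exons were 4399190 to 5064008 in the cKO libraries and 4247471 to 4790038 in the control libraries, with 0.592 to 0.706 CPM (the count relative to the library's total) for 3 counts in 1 library. Reads that touched more than 1 exon ID were set apart as ambiguous, 78.8% to 80.4% of reads in cKO libraries and 72.9% to 75.4% in control libraries, so a gene is counted mainly on bases that no other exon ID covers. Reads outside every exon ID were 5.01% to 6.19% in cKO and 9.86% to 12.0% in control libraries. Virma itself was 18.6, 24.2, 17.8 and 17.0 CPM in cKO libraries, against 61.0, 71.6, 57.1 and 82.1 CPM in control libraries, a log2 fold change of -1.80 ± 0.18 (SE; edgeR adjusted p = 1.02e-06). Oocyte markers were abundant in every library, at a summed 17540 to 21440 CPM in cKO and 34720 to 47440 CPM in control libraries, and 4 of the 10 were lower in cKO while none was higher. The 16 cumulus and granulosa markers summed to 453 to 744 CPM in cKO and 234 to 395 CPM in control libraries. Of these 16, 9 were tested, 4 of them were higher in cKO and 2 were lower, and the granulosa factor Nr5a1 was at 0 in all 8 libraries. Theca and stroma markers summed to 4.43 to 5.59 CPM in cKO and 6.43 to 8.26 CPM in control libraries. Immune, blood and vessel markers summed to 12.1 to 22.1 CPM in cKO and 8.51 to 14.5 CPM in control libraries, and Ptprc, Adgre1, Cd74 and both haemoglobin genes were at 0. Of these 12 markers, 4 were tested, 2 were higher and 1 was lower. The higher ones were C1qa, a complement gene of macrophages, with 7.00 ± 1.64 CPM in cKO libraries, against 0.177 ± 0.217 CPM in control libraries (edgeR adjusted p = 1.40e-06), and the vessel gene Kdr, with 6.48 ± 2.87 CPM in cKO libraries, against 3.50 ± 1.30 CPM in control libraries (edgeR adjusted p = 0.0469). Pecam1, also of vessels, was lower, with 1.62 ± 0.822 CPM in cKO libraries, against 4.42 ± 1.77 CPM in control libraries (edgeR adjusted p = 0.00673). The part of the cells behind these markers in the values below was not tested. In pooled oocytes, fewer cells with a transcript and less of it per cell cannot be told apart.

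Of the 95 genes, 52 had enough counts to be tested. A gene was called where its edgeR adjusted p over all 10673 tested genes was under 0.05. By this rule 17 of the 52 were higher in cKO oocytes, or 32.7%, against 27.0% of all tested genes and 30.4% of tested protein-coding genes. A further 10 were lower, or 19.2%, against 27.9% of all tested genes and 23.5% of protein-coding genes. Called in either direction were 27 of 52, or 51.9%, against 54.9% of all tested genes and 53.9% of protein-coding genes. The groups did not overlap in 24 of the 52, against 50.1% of all tested genes, with the cKO libraries above in 16 (25.0% of all) and below in 8 (25.1% of all). With the further condition of a log2 fold change of 1 or more in size, 10 of the 52 were higher and 2 lower. Of all tested genes 15.1% and 16.9% were, so the 2 lower members are a smaller share than in all genes. Protein-coding genes alone, of which a smaller share was called lower, were not counted at this threshold. The 2 lower members are therefore no result about the family. Without that condition, the share called in either direction is near the background and is no result about the family. By DESeq2, 16 were higher and 10 lower, against 26.2% and 27.3% of all genes, and with the replicate number as a block in edgeR 15 were higher and 9 lower, against 27.0% and 27.2%. On exons other than the last, 19 members could be tested, with 1 higher and 4 lower, against 22.9% higher and 25.2% lower of all genes tested on those exons. The 1 higher member of 19 is a smaller share than in all genes, and the reason was not tested. The median log2 fold change of the tested members was 0.19, against 0.02 for all tested genes and 0.10 for protein-coding genes. With no scaling factors, which moves all log2 fold changes by 0.16, the split was 22 higher and 8 lower, against 32.8% and 23.3% of all tested genes. The range ran from Arl4a, at -2.23, to Rab20, at 4.26.

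**Figure D1:**
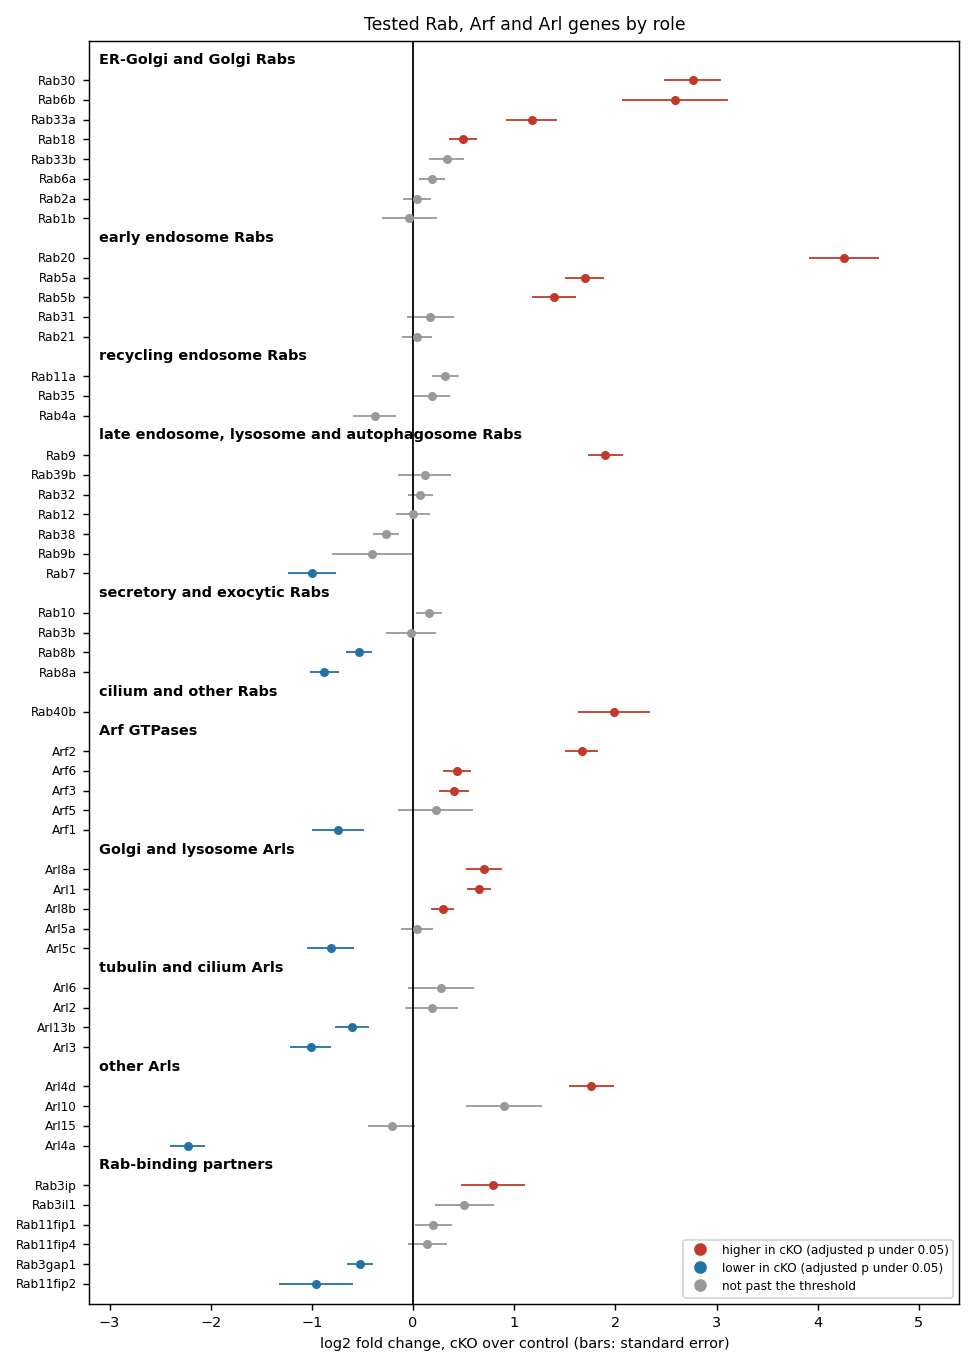
Log2 fold change of cKO over control (x axis) for the 52 tested genes, grouped by role from top to bottom, with bars for the standard error and colour for the edgeR call. The early endosome genes Rab20, Rab5a and Rab5b lie on the higher side and the secretory genes Rab8a and Rab8b on the lower side. The other tested genes of these roles, Rab21, Rab31, Rab10 and Rab3b, were not called.

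**Figure D2:**
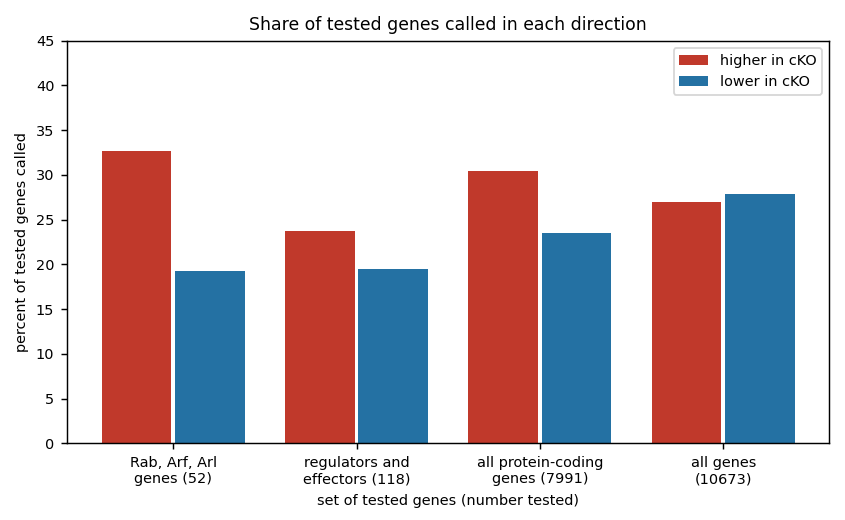
Percent of tested genes called higher and lower in cKO (bars) for the Rab, Arf and Arl genes, their regulators and effectors, all protein-coding genes and all genes. The Rab, Arf and Arl genes stand at 32.7% higher and 19.2% lower, beside 27.0% and 27.9% of all genes.

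By summed level, the 59 Rab GTPases together were 4455 ± 128 CPM in cKO and 4004 ± 337 CPM in control libraries (mean ± SD, n = 4 each). The 6 Arf genes summed to 553 ± 77.1 CPM in cKO and 387 ± 35.7 CPM in control libraries. The 20 Arl genes summed to 1835 ± 47.0 CPM in cKO and 1525 ± 87.9 CPM in control libraries. Each of the 4 cKO sums lay above each control sum for the Arf and Arl families, while the Rab sums overlapped. A few abundant genes carry these sums. Arl8b and Arl1 had means of 972 and 573 CPM in cKO libraries, and Arf3 and Arf6 of 309 and 154 CPM. By gene, 4 of 13 tested Arl genes were higher and 4 lower. The 10 Rab-binding partners summed to 244 ± 23.9 CPM in cKO and 283 ± 29.1 CPM in control libraries.

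Early endosome Rabs had the highest median log2 fold change of the roles with more than 1 tested gene, 1.39. In cKO oocytes 3 of 5 tested genes rose and none fell, against 27.0% higher and 27.9% lower of all tested genes. Counts in a role or list of few genes, here and below, are no result about it. Rab20 (chr8:11453518-11478710, minus strand), an endosomal Rab known from phagosome maturation in macrophages, was 46.8, 47.0, 109 and 54.1 CPM in cKO libraries, against 3.99, 4.79, 2.37 and 2.00 CPM in control libraries. All cKO libraries were above all control libraries, and replicate 3 was the highest cKO library. Its log2 fold change was 4.26 ± 0.35 (SE; edgeR adjusted p = 1.66e-07), a 19.2-fold difference. Rab5a (chr17:53479234-53507680, plus strand), which controls fusion of early endosomes, was 111, 81.2, 81.0 and 95.3 CPM in cKO libraries, against 31.3, 37.1, 21.0 and 24.0 CPM in control libraries. The groups did not overlap, and the log2 fold change of Rab5a was 1.70 ± 0.19 (SE; edgeR adjusted p = 3.50e-06). Rab5b (chr10:128677175-128696264, minus strand), a close relative with the same compartment, was 92.8, 108, 144 and 97.4 CPM in cKO libraries, against 36.8, 62.5, 40.5 and 29.0 CPM in control libraries. Again the lowest cKO library stood above the highest control library, with a log2 fold change of 1.39 ± 0.22 (SE; edgeR adjusted p = 7.76e-05). Rab21, which takes part in integrin endocytosis, was not called, at 370.2 ± 59.2 CPM in cKO libraries, against 360.1 ± 50.8 CPM in control libraries (mean ± SD, n = 4 each). Rab31, which acts between the trans-Golgi and endosomes, was not called either, at 77.7 ± 21.0 CPM in cKO libraries, against 69.0 ± 24.0 CPM in control libraries.

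Among the Rabs of the endoplasmic reticulum and Golgi, 4 of 8 tested rose and none fell, against 27.0% and 27.9% of all tested genes. Their median log2 fold change was 0.41. Rab30 (chr7:92741603-92844535, plus strand), a Golgi Rab, was 34.3, 33.6, 19.4 and 17.2 CPM in cKO libraries, against 4.21, 3.35, 3.42 and 4.25 CPM in control libraries. The cKO libraries fell into a higher pair, replicates 1 and 2, and a lower pair, and all were above the controls, with a log2 fold change of 2.76 ± 0.28 (SE; edgeR adjusted p = 1.26e-06). Rab6b (chr9:103111787-103185276, plus strand), the form of Rab6 known best from neurons, was 4.21, 6.59, 8.38 and 3.37 CPM in cKO libraries, against 0.665, 2.15, 0 and 0.750 CPM in control libraries. It had 0 counts in control replicate 3 and few in the other controls, so its log2 fold change of 2.59 ± 0.53 (SE; edgeR adjusted p = 0.000674) rests on small control counts. Its abundant relative Rab6a, which acts in traffic from and within the Golgi, was 407, 421, 468 and 377 CPM in cKO libraries, against 349, 334, 426 and 359.7 CPM in control libraries. These groups overlapped, and Rab6a was not called at 0.19 ± 0.12 (SE; edgeR adjusted p = 0.219), though with no scaling factors it was called at 0.35 (edgeR adjusted p = 0.0185). Rab33a (chrX:48519285-48530232, plus strand), whose family binds the autophagy protein Atg16l1, was 10.2, 12.3, 14.4 and 13.1 CPM in cKO libraries, against 5.77, 3.11, 6.31 and 7.00 CPM in control libraries. Its groups did not overlap and the log2 fold change was 1.17 ± 0.25 (SE; edgeR adjusted p = 0.00102). Rab18, which sits on the endoplasmic reticulum and lipid droplets, rose to 589.6 ± 71.1 CPM in cKO libraries, against 419 ± 60.2 CPM in control libraries, a log2 fold change of 0.49 ± 0.14 (SE; edgeR adjusted p = 0.00634), which on exons other than the last was 0.43 and not called (edgeR adjusted p = 0.220). The uncalled genes of this role were Rab33b at a log2 fold change of 0.33, Rab2a at 0.04 and Rab1b at -0.04. Rab1b varied widely among control libraries, between 85.1 and 294 CPM, against 163 to 195 CPM in cKO libraries.

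No recycling endosome Rab passed the threshold among 3 tested, beside 54.9% of all tested genes called in either direction. Rab11a (chr9:64715299-64737758, minus strand), the Rab of the oocyte's actin-carrying vesicles, was 496, 451, 354 and 429 CPM in cKO libraries, against 342, 317, 404 and 326 CPM in control libraries. The groups overlapped through cKO replicate 3, the lowest of its group, and control replicate 3, the highest of its group. The log2 fold change of Rab11a was 0.32 ± 0.13 (SE; edgeR adjusted p = 0.0577), and without cKO replicate 3 or without control replicate 3 it passed the threshold at 0.38 (edgeR adjusted p = 0.0322) and 0.40 (edgeR adjusted p = 0.0177). With no scaling factors it also passed, at 0.48 (edgeR adjusted p = 0.00415). Rab35, which acts in fast recycling and cytokinesis, was 101, 110.1, 134 and 99.2 CPM in cKO libraries, against 90.9, 117, 116 and 66.5 CPM in control libraries. Its groups overlapped, at a log2 fold change of 0.19 ± 0.18 (SE; edgeR adjusted p = 0.394). Rab4a, of the rapid recycling route, was 37.6 ± 6.85 CPM in cKO libraries, against 48.9 ± 14.6 CPM in control libraries, at -0.38 ± 0.21 (SE; edgeR adjusted p = 0.151).

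Partners of Rab11a in the vesicle-borne actin network were read in the same fit. Fmn2, the formin that nucleates oocyte actin on these vesicles, rose to 669 ± 35.4 CPM in cKO libraries, against 416 ± 69.9 CPM in control libraries, a log2 fold change of 0.69 ± 0.13 (SE; edgeR adjusted p = 0.000464). Myo5b, the myosin that moves Rab11a vesicles, fell to 88.5 ± 4.43 CPM in cKO libraries, against 176 ± 21.9 CPM in control libraries, a log2 fold change of -0.99 ± 0.13 (SE; edgeR adjusted p = 1.61e-05). Myo5a, its relative, fell to 18.6 ± 3.73 CPM in cKO libraries, against 37.5 ± 3.82 CPM in control libraries, a log2 fold change of -1.01 ± 0.18 (SE; edgeR adjusted p = 0.000245). Spire2, which works with Fmn2, was 4.48 ± 0.479 CPM in cKO libraries, against 4.42 ± 0.220 CPM in control libraries, at a log2 fold change of 0.02 ± 0.24 (SE; edgeR adjusted p = 0.953). The 4 tested of the 6 listed genes of this network therefore hold 1 gene higher, 2 lower and 1 not called.

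Of 7 tested late endosome, lysosome and autophagosome Rabs, 1 was higher and 1 lower, against 27.0% and 27.9% of all tested genes. Rab9 (chrX:166457253-166479867, minus strand), which returns mannose 6-phosphate receptors from late endosomes to the Golgi, was 129.8, 132, 119 and 117 CPM in cKO libraries, against 35.3, 29.7, 25.0 and 43.3 CPM in control libraries. The lowest cKO library had 117 CPM and the highest control library 43.3 CPM, with a log2 fold change of 1.90 ± 0.17 (SE; edgeR adjusted p = 3.96e-07). Rab7 (chr6:87999106-88045270, minus strand), which drives fusion of late endosomes with lysosomes, was 15.7, 10.8, 8.60 and 9.36 CPM in cKO libraries, against 17.3, 21.8, 30.0 and 19.8 CPM in control libraries. All cKO libraries were below all control libraries, replicate 1 being nearest to the controls, with a log2 fold change of -0.99 ± 0.24 (SE; edgeR adjusted p = 0.00238). Rab7 was counted on 819 bases under 1 exon ID only, and 63.8% of its counts lay on a 148-base first exon, so its level rests mainly on that stretch. The related pair Rab32 and Rab38, known for lysosome-related organelles, was not called, with 272 ± 8.13 CPM in cKO libraries, against 259 ± 28.2 CPM in control libraries for Rab32 and 424 ± 24.6 CPM in cKO libraries, against 509 ± 81.2 CPM in control libraries for Rab38. Rab12, Rab39b and Rab9b were not called, at log2 fold changes of 0.00, 0.11 and -0.41.

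Of the secretory and exocytic Rabs, 2 of 4 tested genes fell and none rose, against 27.9% lower and 27.0% higher of all tested genes. Rab8a (chr8:72161200-72183904, plus strand), which carries cargo to the plasma membrane and into cilia, was 142, 138, 124 and 126 CPM in cKO libraries, against 245, 242, 292 and 195 CPM in control libraries. The groups were well apart and the log2 fold change was -0.88 ± 0.14 (SE; edgeR adjusted p = 8.53e-05). Rab8b (chr9:66843664-66919687, minus strand), its close relative, was 132, 158, 129 and 140.1 CPM in cKO libraries, against 184, 185, 228 and 209.9 CPM in control libraries. It too had no overlap between groups, with a log2 fold change of -0.53 ± 0.13 (SE; edgeR adjusted p = 0.00275). Rab10, which shares effectors with Rab8a, was not called at 322 ± 35.9 CPM in cKO libraries, against 288 ± 25.1 CPM in control libraries, and Rab3b, a Rab of regulated secretion, was not called at a log2 fold change of -0.02. The cortical granule genes could not be compared: Rab27a had 4 counts over the cKO libraries and 2 over the controls, and Rab3a had 0 in all 8. Of the exchange factors and carriers of Rab8a and Rab10, Rab3ip is given with the Rab-binding partners, and Rabif, a chaperone of exocytic Rabs, fell to 398 ± 45.7 CPM in cKO libraries, against 698 ± 69.5 CPM in control libraries, a log2 fold change of -0.81 ± 0.13 (SE; edgeR adjusted p = 7.55e-05).

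Rab40b (chr11:121356125-121388251, minus strand), a Rab with a SOCS box that joins a Cullin5 ubiquitin ligase, was the 1 tested gene of the cilium and other Rabs. It was 9.31, 5.74, 6.66 and 5.80 CPM in cKO libraries, against 0.887, 1.20, 3.16 and 1.75 CPM in control libraries. Each cKO library exceeded each control library, and the log2 fold change was 1.98 ± 0.35 (SE; edgeR adjusted p = 0.000237) on small counts.

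**Figure D3:**
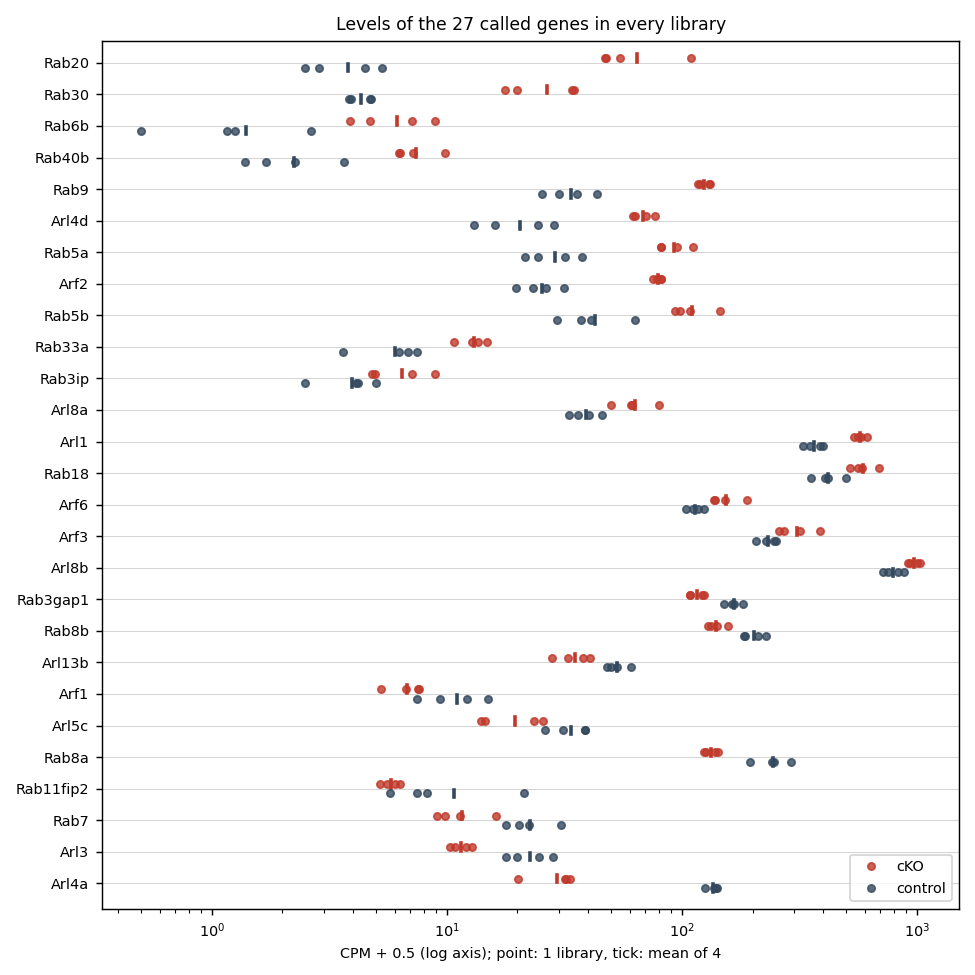
Level in every library (x axis, CPM + 0.5 on a log scale) of the 27 called genes, from the highest to the lowest log2 fold change, with cKO libraries above control libraries in each row and a tick at each mean. Rab20 shows 46.8 to 109.4 CPM in cKO against 2.00 to 4.79 CPM in control libraries, and Arf1, Rab3ip and Rab11fip2 are the genes whose groups overlap.

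Of the Arf genes, 3 of 5 tested rose and 1 fell, against 27.0% and 27.9% of all tested genes. Arf2 (chr11:103966739-103985337, plus strand), a Golgi Arf close to Arf1, was 74.9, 81.2, 78.0 and 80.9 CPM in cKO libraries, against 22.8, 31.1, 26.0 and 19.3 CPM in control libraries. The 4 cKO libraries lay close together and above all controls, with a log2 fold change of 1.67 ± 0.17 (SE; edgeR adjusted p = 1.09e-06). Arf1 (chr11:59211412-59228270, minus strand), which recruits the COPI coat to the Golgi, was 6.20, 7.01, 4.73 and 7.12 CPM in cKO libraries, against 8.87, 11.7, 14.5 and 7.00 CPM in control libraries. The groups overlapped at control replicate 4, and the log2 fold change of -0.74 ± 0.26 (SE; edgeR adjusted p = 0.0240) was not called without cKO replicates 1 or 3 or control replicate 3. Arf1 was also not called with no scaling factors (-0.58, edgeR adjusted p = 0.0674) or on exons other than the last (-0.59, edgeR adjusted p = 0.0709). Arf1 had 807 countable bases, and 56.7% of its counts lay on a 184-base internal exon. Arf6 (chr12:69372150-69373783, plus strand), the Arf of the plasma membrane and of cortical actin, was 138, 136, 189 and 152 CPM in cKO libraries, against 111, 124, 116 and 104 CPM in control libraries. The groups did not overlap, and the log2 fold change of 0.44 ± 0.14 (SE; edgeR adjusted p = 0.0158) was 0.30 without cKO replicate 3 (edgeR adjusted p = 0.0878) and 0.41 without control replicate 1 (edgeR adjusted p = 0.0511). Arf3, close to Arf1 in sequence, rose to 309 ± 57.6 CPM in cKO libraries, against 233 ± 21.0 CPM in control libraries, a log2 fold change of 0.40 ± 0.14 (SE; edgeR adjusted p = 0.0266), which without cKO replicate 3 was 0.26 (edgeR adjusted p = 0.146) and was also not called without cKO replicate 2 or control replicates 1 or 4 or with protein-coding genes only (0.31, edgeR adjusted p = 0.0665). Arf5 was not called, at 4.21 to 7.22 CPM in cKO and 1.77 to 7.90 CPM in control libraries.

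Of the Golgi and lysosome Arls, 3 of 5 tested rose and 1 fell, against 27.0% and 27.9% of all tested genes. Arl1, which recruits golgins to the trans-Golgi, rose to 573 ± 31.6 CPM in cKO libraries, against 366 ± 32.9 CPM in control libraries, a log2 fold change of 0.65 ± 0.12 (SE; edgeR adjusted p = 0.000252). Arl8a (chr1:135146824-135156269, plus strand), which links lysosomes to kinesin, was 49.6, 61.0, 79.5 and 60.3 CPM in cKO libraries, against 32.6, 45.5, 40.0 and 35.8 CPM in control libraries. The groups did not overlap and the log2 fold change was 0.70 ± 0.18 (SE; edgeR adjusted p = 0.00328). Arl8b, its more abundant relative on lysosomes, rose to 972 ± 54.9 CPM in cKO libraries, against 794 ± 73.8 CPM in control libraries, and its log2 fold change of 0.29 ± 0.12 (SE; edgeR adjusted p = 0.0427) was not called in 12 of 17 alternative settings, including without 7 of the 8 libraries in turn. Arl5c (chr11:97989578-97996181, minus strand) was 25.3, 22.9, 13.5 and 14.0 CPM in cKO libraries, against 38.4, 30.6, 25.8 and 38.3 CPM in control libraries. The cKO libraries fell into 2 pairs, both below the controls, with a log2 fold change of -0.82 ± 0.23 (SE; edgeR adjusted p = 0.00706). Arl5a was not called, at 44.0 ± 3.95 CPM in cKO libraries, against 42.8 ± 6.04 CPM in control libraries.

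Of the Arls of tubulin folding and cilia, 2 of 4 tested were lower and none higher, against 27.9% and 27.0% of all tested genes. Arl3 (chr19:46531096-46573198, minus strand), which releases lipid-modified proteins inside the cilium, was 11.5, 9.77, 12.2 and 10.3 CPM in cKO libraries, against 17.3, 19.4, 24.2 and 27.8 CPM in control libraries. No cKO library reached the lowest control library, and the log2 fold change was -1.01 ± 0.20 (SE; edgeR adjusted p = 0.000631). Arl13b (chr16:62793685-62847040, minus strand), the exchange factor of Arl3, was 37.7, 40.4, 32.5 and 27.5 CPM in cKO libraries, against 60.5, 52.4, 47.4 and 49.3 CPM in control libraries. All cKO libraries were below all controls, with a log2 fold change of -0.60 ± 0.17 (SE; edgeR adjusted p = 0.00624). Arl2, which acts with tubulin cofactors, was 4.21, 4.67, 5.80 and 4.12 CPM in cKO libraries, against 3.99, 4.31, 5.00 and 3.25 CPM in control libraries. These groups overlapped and Arl2 was not called, at 0.18 ± 0.26 (SE; edgeR adjusted p = 0.571). Arl6, which recruits the BBSome, was not called, at 4.45 ± 1.23 CPM in cKO libraries, against 3.66 ± 1.36 CPM in control libraries.

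Rp2, Arl2bp and Unc119b, partners of Arl2 and Arl3 named for the smallest p of their lists, were among the largest differences of the listed regulators. Other partners, some not called or not tested, are not shown. Rp2, the GAP of Arl3, rose to 10.7 ± 1.57 CPM in cKO libraries, against 0.319 ± 0.380 CPM in control libraries. Arl2bp, an effector of Arl2 and Arl3, rose to 14.2 ± 1.59 CPM in cKO libraries, against 1.47 ± 0.624 CPM in control libraries, a log2 fold change of 3.26 ± 0.29 (SE; edgeR adjusted p = 3.30e-07). Unc119b, a carrier of myristoylated cargo that Arl3 unloads, rose to 24.0 ± 8.43 CPM in cKO libraries, against 4.51 ± 1.41 CPM in control libraries, a log2 fold change of 2.40 ± 0.29 (SE; edgeR adjusted p = 5.69e-06), with cKO replicate 3 the highest. The log2 fold change of Rp2 was 5.02 ± 0.48 (SE; edgeR adjusted p = 6.63e-07), fitted to 207 counts over the cKO libraries and 5 over the controls.

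The paralogs Arl4a and Arl4d went in opposite directions. Arl4a (chr12:40005447-40038025, minus strand), which like Arl4d brings cytohesins to the plasma membrane, was 33.0, 31.4, 19.6 and 31.6 CPM in cKO libraries, against 137, 140.0, 125 and 140.1 CPM in control libraries. The controls lay close together, all cKO libraries were below them, and replicate 3 was the lowest, with a log2 fold change of -2.23 ± 0.17 (SE; edgeR adjusted p = 1.04e-07). Arl4d (chr11:101665541-101667832, plus strand) was 61.8, 62.7, 76.3 and 70.0 CPM in cKO libraries, against 15.5, 23.9, 28.1 and 12.5 CPM in control libraries. All cKO libraries were above all controls, with a log2 fold change of 1.76 ± 0.22 (SE; edgeR adjusted p = 1.03e-05). Of the cytohesins, which are exchange factors of Arf6, Cyth3 rose to 62.9 ± 8.20 CPM in cKO libraries, against 25.6 ± 5.15 CPM in control libraries, a log2 fold change of 1.29 ± 0.18 (SE; edgeR adjusted p = 2.07e-05). Iqsec1, another exchange factor of Arf6, fell to 3.99 ± 0.964 CPM in cKO libraries, against 14.1 ± 4.64 CPM in control libraries, a log2 fold change of -1.81 ± 0.29 (SE; edgeR adjusted p = 9.77e-05). Arl10 and Arl15 were not called, at log2 fold changes of 0.90 and -0.21.

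Of the 10 Rab-binding partners, 6 were tested: 1 was higher and 2 were lower, against 27.0% and 27.9% of all tested genes. Rab3gap1 (chr1:127868773-127943868, plus strand), the catalytic subunit of the Rab3 GAP and, with Rab3gap2, an exchange factor of Rab18, was 108, 124, 122 and 108 CPM in cKO libraries, against 167, 182, 150.5 and 164 CPM in control libraries. The groups did not overlap, with a log2 fold change of -0.52 ± 0.13 (SE; edgeR adjusted p = 0.00247), though on exons other than the last it was 0.11 (edgeR adjusted p = 0.805). Rab11fip2 (chr19:59902884-59943654, minus strand), which joins Rab11 to Myo5b, was 5.54, 4.67, 5.80 and 5.05 CPM in cKO libraries, against 7.76, 20.8, 5.26 and 7.00 CPM in control libraries. Control replicate 2 stood far above the other controls, and the log2 fold change of -0.96 ± 0.37 (SE; edgeR adjusted p = 0.0375) became -0.36 without it (edgeR adjusted p = 0.232). It was also not called without any 1 of the 4 cKO libraries, with the replicate number as a block (-0.80, edgeR adjusted p = 0.0551), with no scaling factors (-0.82, edgeR adjusted p = 0.0844) or on exons other than the last (-0.79, edgeR adjusted p = 0.0987). Rab3ip (chr10:116905784-116950769, minus strand), also called Rabin8, an exchange factor of Rab8, was 6.65, 4.46, 8.38 and 4.31 CPM in cKO libraries, against 2.00, 3.59, 3.68 and 4.50 CPM in control libraries. Its groups overlapped, and the log2 fold change of 0.79 ± 0.32 (SE; edgeR adjusted p = 0.0457) was not called without any 1 of cKO replicates 1 and 3 and control replicates 1, 2 and 3. Nor was Rab3ip called by DESeq2 (adjusted p = 0.0680), with the replicate number as a block (edgeR adjusted p = 0.0655), with no filter on low counts (edgeR adjusted p = 0.0514) or with protein-coding genes only (edgeR adjusted p = 0.0764). Rab11fip1, Rab11fip4 and Rab3il1 were not called, at log2 fold changes of 0.20, 0.14 and 0.51.

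Where a gene kept counts on at least 2 exons, the share of each exon within the gene was compared as well. This held for 13 members, of which Rab11fip1 was called (edgeR diffSpliceDGE, Simes adjusted p = 0.000138), beside 23.6% of all genes tested this way. A 59-base internal exon of Rab11fip1 (chr8:27149036-27149094) held 12.4%, 9.45%, 7.01% and 8.99% of the counts on its tested exons in cKO libraries, against 35.2%, 25.2%, 37.0% and 35.3% in control libraries. All cKO libraries were below all controls for this exon, a log2 change in usage of -1.85. The internal exon at chr8:27151597-27153159, with 1257 countable bases, held 7.56% ± 1.17 in cKO and 2.93% ± 2.36 in control libraries (SD, n = 4 each), a log2 change in usage of 1.41. The gene as a whole was not called, at 59.4 ± 16.1 CPM in cKO libraries, against 51.7 ± 4.41 CPM in control libraries. The other 12 members tested for usage, among them Rab5a, Rab7, Rab18, Arl3 and Arl8b, were not called, though most had only 2 tested exons.

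Levels were also compared between genes, as mean CPM per 1000 countable bases, where countable means under 1 exon ID only. These bases are summed over all exons of a gene, while 95.9% of members' counts lay on last exons. Genes with many countable bases on other exons are thus scaled down. Arl4a, for example, had 97.1% of its counts on a 3543-base exon and 5941 countable bases. On this scale Rab18 had 465.0 in cKO and 331 in control libraries, and Rab38 had 424 in cKO and 509.9 in control libraries. They were followed by Arl1 with 351 in cKO and 224 in control, Arl8b with 235.5 in cKO and 192 in control, and Rab11a with 232 in cKO and 186 in control. The order of the 52 tested genes was largely shared by the groups, with a Spearman correlation across genes of 0.90 (n = 52 genes, which are not independent replicates). Rab20 stood at place 15 in cKO and place 42 in control libraries, while Arl4a stood at place 40 in cKO and place 21 in control libraries. Rab9 stood at place 9 in cKO and place 18 in control libraries.

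Related genes were then compared as ratios within a library, which hardly depend on how libraries are scaled. Of 33 listed pairs of paralogs, 13 had both genes tested, and 9 differed between the groups by an exact two-sided permutation test of the log2 ratio (CPM + 1). With 4 against 4 libraries the smallest p of this test is 0.0286, which each of the 9 pairs had, and the p adjusted over the 13 pairs was 0.0413. These 9 values mean that the 4 cKO ratios were all on one side of the 4 control ratios. Pairs of unrelated genes were not tested, and 50.1% of all tested genes had groups that did not overlap. The count of 9 is therefore no result about paralogs as such. The pairs among Arf1, Arf2 and Arf3 also reuse the same values, so the 9 are not independent. The ratio is on a CPM scale, so its change between groups is read here and not its level.

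The ratio of Arl4a to Arl4d changed most, with log2 ratios of -1.91 to -0.89 in cKO and 2.11 to 3.38 in control libraries, a difference of -3.99. Per 1000 countable bases, with the limit given above, Arl4a averaged 4.87 CPM in cKO and 22.8 CPM in control libraries. Arl4d averaged 49.0 CPM in cKO and 14.5 CPM in control libraries. Arf1 to Arf2 was -3.47 ± 0.21 in cKO and -1.19 ± 0.26 in control libraries (SD, n = 4 each), a difference of -2.28. The ratio of Arf1 to Arf3 differed by -1.02 and that of Arf2 to Arf3 by 1.26. Rab9 to Rab9b differed by 2.24 and Rab6a to Rab6b by -1.68, where the log2 ratio of Rab6a to Rab6b was 6.04 ± 0.38 in cKO and 7.72 ± 0.82 in control libraries. Smaller differences were 1.09 for Arl2 to Arl3, 0.73 for Rab33a to Rab33b and 0.33 for Rab32 to Rab38. Rab32 and Rab38 were not called one by one, and their log2 ratio was -0.63 ± 0.11 in cKO and -0.97 ± 0.07 in control libraries. The ratio did not pass for Rab5a to Rab5b (0.28, exact permutation adjusted p = 0.400), Rab8a to Rab8b (-0.33, adjusted p = 0.0929), Arl5a to Arl5c (0.86, adjusted p = 0.0929) and Arl8a to Arl8b (0.39, adjusted p = 0.0743). A p above the threshold does not show that these pairs kept their ratio.

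**Figure D4:**
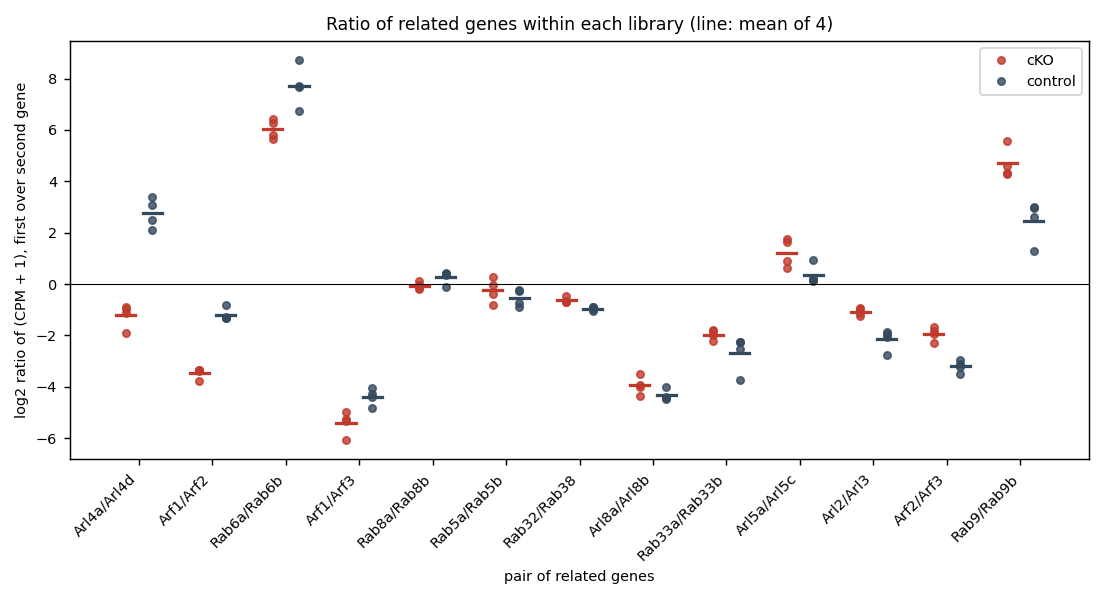
Log2 ratio of (CPM + 1), first gene over second, in each library for the 13 tested pairs of related genes, with lines at the mean of 4 libraries and cKO left of control. Arl4a/Arl4d lies between -1.91 and -0.89 in cKO and between 2.11 and 3.38 in control libraries, while Rab5a/Rab5b overlaps.

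Regulators and effectors of these GTPases were taken from lists of 226 genes, of which 118 were tested. Of these, 28 (23.7%) were higher in cKO and 23 (19.5%) lower, below the 27.0% and 27.9% of all tested genes. All are protein-coding, and of tested protein-coding genes 30.4% were higher and 23.5% lower. With no scaling factors the split was 38 higher and 18 lower, against 32.8% and 23.3% of all tested genes. Arf and Arl effectors and ligands had 6 of 12 tested genes higher and none lower, including Arl6ip5 at a log2 fold change of 2.01 and Arl6ip6 at 1.04 beside Arl2bp and Unc119b above. Rab GAPs had 6 of 17 higher and 2 lower. Among them Tbc1d12 rose to 17.1 ± 5.25 CPM in cKO libraries, against 2.42 ± 0.895 CPM in control libraries, and Tbc1d2b and Tbc1d30 had log2 fold changes of 0.99 and 0.88, while Tbck fell at -1.02.

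Rab GEFs had 6 of 27 tested genes higher and 5 lower, against 27.0% and 27.9% of all tested genes. Rin2 and Rin3, exchange factors of Rab5, fell, with log2 fold changes of -0.99 and -0.60, and Trappc6b, of the TRAPP complexes, fell at -1.62. The direction of Rin2 depended on which of its exons were counted. On its last exon (chr2:145751913-145753672) it had 224 counts over the cKO libraries and 581 over the controls, while a 72-base internal exon (chr2:145737383-145737454) had 121 counts in cKO and 4 in control libraries. Rin2 was looked at by exon after its values were seen.

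Rab effectors had 4 of 21 tested genes higher and 7 lower, against 27.0% and 27.9% of all tested genes. The lower ones include effectors of Rab27a, which itself had too few counts to test. Of these, Mlph and Sytl2 are named for the smallest p of the list. Among other listed Rab27a effectors, Myrip was lower too, at -0.47, while Sytl4 and Rph3a were not called, at -0.195 and 0.295. Sytl1, Sytl3 and Sytl5 were not tested. Mlph, which ties Rab27a to Myo5a, fell to 3.93 ± 1.01 CPM in cKO libraries, against 13.5 ± 2.48 CPM in control libraries, a log2 fold change of -1.77 ± 0.25 (SE; edgeR adjusted p = 2.84e-05). Sytl2, another effector of Rab27a, fell to 4.53 ± 1.41 CPM in cKO libraries, against 10.7 ± 3.10 CPM in control libraries, a log2 fold change of -1.22 ± 0.28 (SE; edgeR adjusted p = 0.00185). Inpp5b and Rilpl1 fell as well, at -1.57 and -0.99.

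Arf and Arl GAPs had 1 of 14 tested genes higher and 2 lower, against 27.0% and 27.9% of all tested genes. These were Rp2 above, Agap1 at -1.20 and Git2 at -0.94, though Git2 was not called without cKO replicate 4. Arap2 was not called at 0.55, but was called without cKO replicate 1 or control replicate 3, with no scaling factors (0.72, edgeR adjusted p = 0.0136) and on exons other than the last (0.70, edgeR adjusted p = 0.0160). Arf and Arl GEFs with the lysosomal BORC complex had 1 of 13 higher and 1 lower, Cyth3 and Iqsec1 above, while Borcs7 and Psd3 were not called. Of the 3 tested genes for GDI, escort and prenylation, the escort protein Chm was higher at 0.97, Rabif was lower, and Gdi2, which takes Rabs off membranes, was not called at -0.81. Chm was not called without cKO replicate 3 or control replicates 2, 3 or 4, and Gdi2 was called at -1.05 without control replicate 2 (edgeR adjusted p = 0.0189). Related GTPases outside the symbol rule had 2 of 7 higher and 3 lower. Sar1a, the GTPase of the COPII coat, rose at 1.03 and Ift27, a Rab-like subunit of intraflagellar transport, at 1.60. Rasef and Trim23 fell, at -1.98 and -0.80.

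The remaining 43 genes of the set did not pass the count filter, so the 52 tested genes are not the whole family. Of the 43, 10 had no count in any library, 17 had 1 to 9 counts over all 8 libraries and 16 had 10 or more. Abundant Rabs of other tissues were among them: Rab1a had 4 counts over the cKO libraries and 1 over the controls, and Rab14 had 18 over the cKO libraries and 23 over the controls. The sources used here do not give the treatment of reads that map to several places, and a low count is no evidence of a low level. Rab15, a Rab of recycling endosomes, had 59 counts over the cKO libraries and 2 over the controls, a ratio of 25.3 at these depths with a 95% interval of 6.70 to 214 (Clopper-Pearson, counting error only). All cKO libraries were above all controls for Rab15. Rab37, a secretory Rab, had 35 counts over the cKO libraries and 10 over the controls, and Rab36, a Golgi Rab, had 31 over the cKO libraries and 9 over the controls. Rab25, an epithelial relative of Rab11a, had 30 counts over the cKO libraries and 9 over the controls, and Rab11b had 19 over the cKO libraries and 25 over the controls. With no filter on low counts 6 of the 43 were called higher and none lower by edgeR: Rab15, Rab13, Rab37, Rab36, Rab28 and Arl9. The 10 genes without any count could not enter that fit. In that fit 13.3% of all genes were higher and 12.7% lower, and of the 18878 genes with counts that the filter leaves out, 5.89% were higher and 4.87% lower. Arl9 had 7 counts over the cKO libraries and 0 over the controls.

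**Figure D5:**
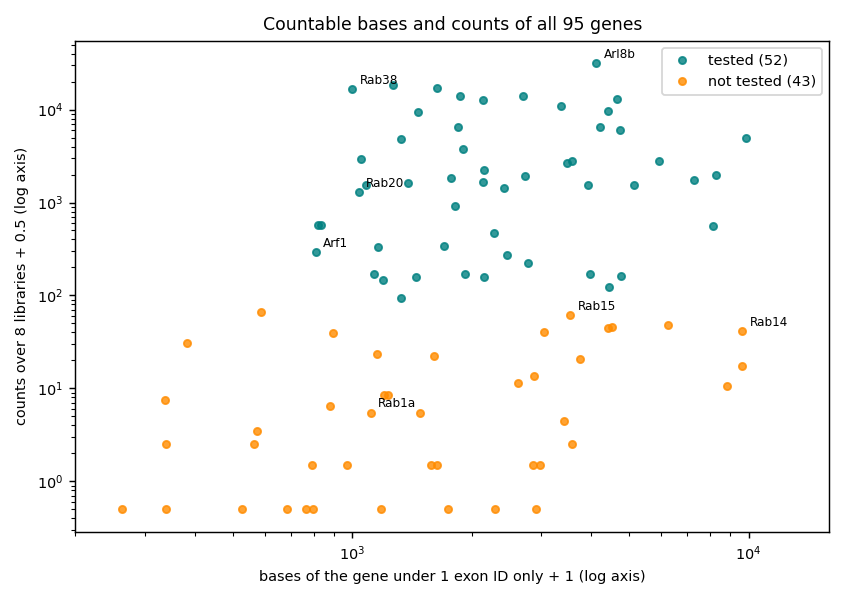
Counts over all 8 libraries + 0.5 (y axis, log scale) against bases under 1 exon ID only + 1 (x axis, log scale) for all 95 genes, coloured by whether the gene was tested. Rab14 has many countable bases and 41 counts, while Rab38 and Arf1 were tested on few countable bases.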

How the data were processed

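The authors deposited raw counts per exon ID, 1 table for each of 8 libraries. The submitters' processing notes name STAR, HTSeq and mm10; the sources used here give no versions, options or annotation release. Oligo-dT priming, template switching and tagmentation, per the labels' protocols, do not mark strand. Of 496288 exon IDs, 494230 (99.6%) matched GENCODE M21 with versions ignored. The other 2058 hold 0.252% of counts and were left out, as were 5 summary rows. Counts were summed per gene, so genes are read mostly on last exons (76.8% of all counts, 95.9% of members' counts). Genes were kept by filterByExpr (minimum count 10), scaled by TMM and tested two-sided by group in edgeR 4.0.16 (R 4.3.3), with Benjamini-Hochberg adjustment over 10673 genes. A standard error is the log2 fold change over the root of F. Exon usage used diffSpliceDGE and pair ratios an exact permutation test. CPM are on TMM-scaled totals. Scripts were tested on simulated data. DESeq2 1.42.0, other scalings and filters, last exons left out and each library left out were alternatives.

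Members, lists, pairs and tests were chosen with earlier results of these data known. Named genes were the 12 largest called changes in each direction, 12 members listed by name whatever their change, and up to 4 genes of smallest p per regulator list. A gene named by this rule is not reported here. No 2 libraries of a group agreed within sampling noise. Intervals cover counting error only, since amplified reads are not independent molecules.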

Additional observations from a re-analysis of the deposited data

Results flagged for a closer look

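Within each group of 4 libraries, the tested members and the named regulators were screened for a library far from the other 3 (Dixon's rule at 95%). This flagged 11 of 174 groups, and chance flags about 1 in 20. No explanation was tested.

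Among genes called higher, cKO replicate 3 had 109.4 CPM of Rab20, against 46.8 to 54.1 CPM in the other cKO libraries, and 36.5 CPM of Unc119b, against 18.5 to 20.4 CPM. Cyth3 had 33.3 CPM in control replicate 2, against 22.4 to 23.7 CPM in the other controls. Among genes called lower, Arl4a had 19.6 CPM in cKO replicate 3, against 31.5 to 33.0 CPM in the other cKO libraries. Rin2 had 13.5 CPM in cKO replicate 3, against 18.9 to 19.9 CPM in the others. Mlph had 2.44 CPM in cKO replicate 1, against 4.30 to 4.68 CPM in the others. Rab11fip2 had 20.8 CPM in control replicate 2, against 5.26 to 7.76 CPM in the other controls.

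Among genes that were not called, Rab11fip1 had 83.2 CPM in cKO replicate 3, against 49.2 to 54.8 CPM in the other cKO libraries, and Rab3il1 had 7.09 CPM there, against 4.46 to 4.87 CPM. Arf5 had 7.22 CPM in cKO replicate 2, against 4.21 to 4.49 CPM in the others. Rab39b had 4.00 CPM in control replicate 4, against 6.43 to 6.70 CPM in the other controls. Of the 11 flags, 6 concern cKO replicate 3.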

How the results depend on the processing

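The counts of members higher and lower, 17 and 10, stayed within 1.5 times except in 2 settings. On exons other than the last, 19 members could be tested, with 1 higher and 4 lower, and with a fold threshold (absolute log2 of 1 or more) 10 were higher and 2 lower. Without 1 library in turn, 14 to 19 members were higher and 8 to 11 lower. Regulators, 28 higher and 23 lower, came to 14 and 11 of 45 on exons other than the last, to 15 and 10 with the fold threshold, and to 23 to 31 and 19 to 25 without 1 library. By DESeq2, 16 members were higher and 10 lower.

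Changed exon usage was called in 1 member, in 2 by the gene-level F test (Rab38 added), and in 1 to 3 without 1 library. Arl4a entered without cKO replicate 2, 3 or 4 or control replicate 2 or 4, and Rab10 without control replicate 4. With the replicate number as a block, 15 members were higher and 9 lower, 30 and 22 regulators, and 1 member by exon usage. Deviations of same-numbered libraries correlated at 0.11, -0.06, 0.10 and 0.06, so the numbers were not taken as pairs. Under that block 0 of 13 pair ratios could pass, since the smallest sign-flip p is 0.125. On exons other than the last 1 pair could be tested and was called.

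Of the single fold changes under the alternatives, 1012 kept direction and side of the threshold, 47 lost the call, 9 gained it and 6 changed sign. The changes of sign were Rab3gap1 (0.11) and Rin2 (4.70, called) on exons other than the last, and Spire2, near 0 throughout, at -0.068 with protein-coding genes only and between -0.076 and 0.076 without 1 library in turn (-0.076 without cKO replicate 3, -0.001 without control replicate 3 and -0.014 without control replicate 4). The causes were not tested. Lost calls were in Rab3ip, Rab11fip2, Arf1, Arf3, Arf6, Arl8b, Rab18, Git2 and Chm. Gained calls were in Rab11a, Rab6a, Arap2 and Gdi2. Of the 43 members that did not pass the count filter, 10 had no count and 17 had 1 to 9 counts, which limits what can be read from them.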
